A study of Mus musculus with 16 samples.

Results

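The insulin-like growth factor (IGF) binding proteins are a family of secreted proteins, and 6 of their genes were followed here: Igfbp2, Igfbp3, Igfbp4, Igfbp5, Igfbp6 and Igfbp7. They were taken by gene symbol in the platform's probe table out of 15967 genes that a probe names, a rule that uses no measured value, though the family was picked with earlier results known. A detected probe stood for 5 of the 6, among 9405 genes with such a probe. Igfbp3 was not analysed here. Expression was measured on 16 Illumina BeadChip arrays of cells labelled as mouse embryonic fibroblasts (MEFs), with 1 array for each of 16 conditions and no replicate. According to the labels, 8 arrays hold RNA of MEFs carrying RasV12, an active form of the Ras oncogene, together with the adenoviral oncogene E1A. Of these, 4 are Smad1f/f (the Smad1 gene flanked by sites for Cre, titled pbabe) and 4 are Smad1-/- (titled cre), and they are called transformed here. In each genotype the conditions are no treatment at 0 h and 12 h of BMP2 (a bone morphogenetic protein), of Adriamycin (ADR, the DNA-damaging drug doxorubicin) or of both. The remaining 8 arrays are labelled as passage 2 primary MEFs, non-transformed, at 8 h and at 16 h, without treatment or with the same agents. The doses are uncertain: BMP2 is 100 ng/ml in some titles and 50 ng/ml in the design text, and ADR is 0.3 uM in some titles where the design text has 1 ug/ml for transformed cells. Whether a line was a clone or a pool is not given in the sources used here.

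IGF-I and IGF-II signal through the IGF type 1 receptor, and the binding proteins hold these ligands outside the cell, where they can either keep them from the receptor or carry and release them near it. Proteases such as pregnancy-associated plasma protein A (PAPP-A, the product of Pappa) cut IGFBP4 and IGFBP5 and so free the ligand. IGFBP2, IGFBP4 and IGFBP5 bind both ligands tightly, IGFBP6 prefers IGF-II, and IGFBP7 binds IGFs only weakly. Fibroblasts secrete several of them, and embryonic fibroblasts make IGF-II.

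The promoters of Igfbp2, Igfbp4 and Igfbp5 are shown because the changes described below lie mostly in these 3 genes, and because Igfbp2 and Igfbp5 are next to each other among the coding genes of chromosome 1. Each sequence is RefSeq's (build GRCm38.p6), written 5′ to 3′ on the gene's own strand, from 250 bases before the annotated start to 50 after it. Capitals mark 3 motifs, searched on either strand. The first is the TATA box, spelled TATAAA. The next is the GC box, spelled GGGCGG. The last is a GC-rich sequence that SMAD1 can bind, spelled GGCGCC.
Igfbp2, chr1:72824230-72824529, plus strand: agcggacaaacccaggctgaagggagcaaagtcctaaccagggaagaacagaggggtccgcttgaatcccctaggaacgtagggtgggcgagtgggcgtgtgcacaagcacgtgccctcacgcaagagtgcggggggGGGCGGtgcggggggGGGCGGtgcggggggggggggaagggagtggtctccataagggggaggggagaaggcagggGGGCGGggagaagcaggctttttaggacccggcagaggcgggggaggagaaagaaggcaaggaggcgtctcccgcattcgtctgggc
Igfbp4, chr11:99040994-99041293, plus strand: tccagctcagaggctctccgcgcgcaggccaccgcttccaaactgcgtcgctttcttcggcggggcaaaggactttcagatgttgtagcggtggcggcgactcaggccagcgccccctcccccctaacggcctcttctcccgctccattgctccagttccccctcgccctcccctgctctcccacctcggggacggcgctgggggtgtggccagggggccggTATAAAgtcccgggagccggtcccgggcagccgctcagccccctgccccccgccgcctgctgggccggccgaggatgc
Igfbp5, chr1:72874816-72875115, minus strand: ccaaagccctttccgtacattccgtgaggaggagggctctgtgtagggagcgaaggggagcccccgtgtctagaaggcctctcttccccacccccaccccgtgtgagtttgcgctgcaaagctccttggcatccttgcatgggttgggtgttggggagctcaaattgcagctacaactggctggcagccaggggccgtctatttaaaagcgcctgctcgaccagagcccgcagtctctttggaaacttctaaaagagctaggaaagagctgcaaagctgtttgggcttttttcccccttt
The Igfbp2 window, the first of 2 that RefSeq gives for this gene, holds 3 GC boxes and no TATAAA. The Igfbp4 window holds TATAAA at position -28 from the start and no GC box, and the Igfbp5 window holds none of the marked motifs. Of all 32851 mouse windows of this length, 13.6% hold TATAAA, 35.7% GGGCGG and 11.9% GGCGCC on either strand. Also searched were CACGTG (an E-box, in 7.15% of windows), GTCTAGAC (a SMAD box, in 0.213%), CCAAT (in 37.4%) and the decamer of the p53 response element (in 8.36%). Of these 4, the first Igfbp2 window holds 1 E-box and the other windows printed hold none. No motif matches overlap within the windows printed. The GC content was 67.0% for Igfbp2, 71.3% for Igfbp4 and 56.3% for Igfbp5, against a median of 52.7% over all windows. These matches describe the letters only.

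Several checks went against the labels, so groups are named below by their labels and not as checked identities. Between 40.1% and 46.8% of 24613 probes were detected per array. All 10 fibroblast markers were detected on each array labelled transformed, against 3 of 10 on each array labelled primary, where Col1a1, Col1a2, Col3a1, Dcn, Fap, Lum and Thy1 were undetected on all 8 arrays. Their summed signal ranged from 49670 to 58960 in the first set and from 15830 to 21230 in the second. Epithelial markers summed to 649.1 to 1742 against 2043 to 4356, with Epcam and Cdh1 undetected on all 16 arrays. Krt18 alone had signals of 85.2 to 110.4 against 1558 to 3837. Krt7 went the other way, at 106 to 935.1 against 76.5 to 122.7, and Krt19 was undetected on all 8 primary arrays. Of 4 tested epithelial markers, 2 were higher with the Smad1f/f label than with the primary label and 1 was lower. Of all features 59.9% passed in that comparison. The Smad1 probe differed by 0.01 ± 0.11 (log2, SE) between the genotype labels, Smad1-/- minus Smad1f/f, and whether it lies in the deleted part is not given in the sources used here. Id1 and Id3, targets of BMP signalling, stood at 1.37 ± 0.20 and 1.10 ± 0.16 with the Smad1-/- label, each with an adjusted p of 0.0555. In the primary set Cdkn1a and Mdm2, targets of p53, rose with the BMP2 label (0.96 ± 0.08 and 0.71 ± 0.13), while Id1 and Id3 rose with the ADR label (0.96 ± 0.08 and 0.70 ± 0.07). In the transformed set, relative to 0 h, Mdm2 rose with the BMP2 label (0.55 ± 0.09, adjusted p = 0.00045) and stood at -0.18 ± 0.09 with the ADR label (adjusted p = 0.292), while Id3 fell with the BMP2 label (-1.72 ± 0.23, adjusted p = 8.21e-05). At 12 h, Mdm2 stood at 0.35 and 0.18 with both agents against -0.58 and -0.57 with BMP2 alone (Smad1f/f and Smad1-/-). Cdkn1a stood at 0.36 and 0.51 against -0.15 and -0.10, so both p53 targets were higher where ADR was added to BMP2. Id1 stood at 0.05 and 0.80 with BMP2 against 0.19 and 1.59 at 0 h. Id3 with ADR alone stood at 0.13 and 1.96 against 1.26 and 1.90 at 0 h. These values go both ways, and the agent labels are read as labels too. The deposited signals of the Smad1-/- BMP2 array repeat those of the Smad1f/f BMP2 array, so its values come from the authors' log2 table, and the members' results in the transformed set that rest on it are given without it as well.

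Changes are given on the log2 scale with their standard error (SE), from limma fits across all features (named genes, and probes without a gene name tested as themselves) to the authors' log2 values, which set each probe relative to its median over the 16 arrays. The threshold was an adjusted p (Benjamini-Hochberg, two-sided) under 0.05. With 1 array per condition, the spread comes from departures from additive effects of genotype or time and of agent, and it holds no spread between repeated cultures. The share of all features that passed is given for each comparison, and it was often high, so a member's passing is read against it. Signals of different probes are not compared with each other.

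**Figure D1:**
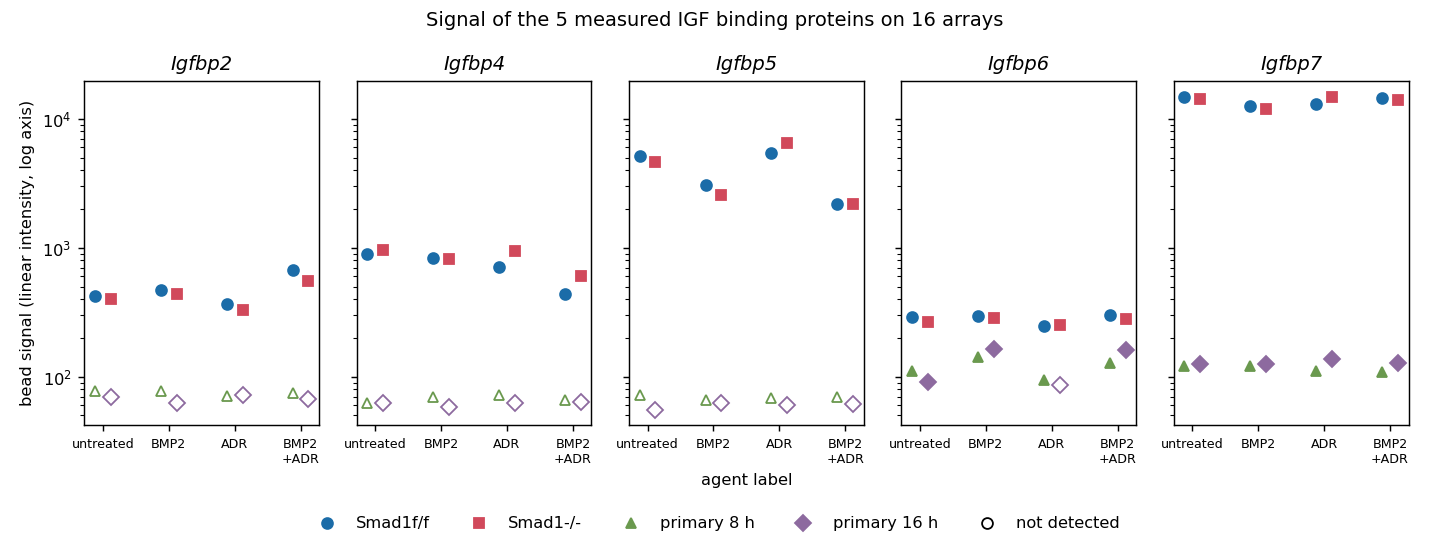
Bead signal (linear intensity, log axis, not normalised) of the 5 measured binding protein genes on each of the 16 arrays, by agent label; circles are Smad1f/f, squares Smad1-/-, triangles primary at 8 h and diamonds primary at 16 h, and open symbols are undetected. In each panel the 8 arrays labelled transformed lie above the 8 labelled primary, and Igfbp2, Igfbp4 and Igfbp5 are open on all 8 primary arrays.

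All 5 measured members had higher levels with the Smad1f/f label than with the primary label. In this comparison 59.9% of 10982 features passed and 27.2% passed as higher. Igfbp2, Igfbp4 and Igfbp5 entered it only through the transformed arrays, where they are high. Their direction was thereby fixed, so no p-value is given for them and only their levels are described. Igfbp5 had a bead signal of 2169 to 6541 (median 3825) on the 8 transformed arrays and of 55.4 to 71.9 (median 64.3) on the primary ones, where it was undetected throughout. It was at least 39.2-fold higher on the 4 Smad1f/f arrays. The sets did not overlap.

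Igfbp4 ranged from 438.7 to 961.2 (median 825.2) against 58.6 to 71.9 (median 63.0), undetected on all 8 primary arrays, and was at least 7.36-fold higher. Igfbp2 ranged from 330.5 to 671.4 (median 429.9) against 62.0 to 77.6 (median 71.4), again undetected on all 8 primary arrays, and was at least 4.99-fold higher. These 3 folds are lower bounds, set against the lowest signal of any detected probe on each primary array. The ratios of the measured means, which include the background signal, were 54.1, 10.1 and 6.22.

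Igfbp7 was detected on all 16 arrays by 1 of its 3 probes, while the other two were undetected on every array, and had the steadiest levels within a set. Its signal ranged from 11930 to 14870 (median 14170) on the transformed arrays and from 107.8 to 137.5 (median 123.6) on the primary arrays, a difference of 6.73 ± 0.06 or 106-fold (adjusted p = 1e-18). Igfbp6 was detected on 15 arrays, all but the primary ADR array at 16 h, and ranged from 248.4 to 299.0 (median 284.1) against 85.8 to 163.3 (median 118.5). It was 2.26-fold higher (1.17 ± 0.11, adjusted p = 3.06e-07), and the sets did not overlap. Background correction by neqc widened these differences, to 7.41 ± 0.09 for Igfbp7 and 1.70 ± 0.18 for Igfbp6. The sets also differ in the fibroblast, smooth muscle and macrophage marker lists, whose part in these differences was not tested. Acta2, Tagln and Myh11 were detected on every transformed array and on no primary array, while Cnn1 was undetected in both sets. Of 4 macrophage markers with a probe, 2 were detected on each transformed array and 0 on any primary array. Line, transformation, time and any array batch differ together between the sets and cannot be told apart, nor, in bulk RNA, can fewer cells of a type and less RNA per cell.

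No member passed between the genotype labels, Smad1-/- minus Smad1f/f, where 0% of 10275 features passed in limma. An unadjusted p under 0.05 was reached by 1056 features, and neqc called 14. Igfbp4 had the highest difference, 0.21 ± 0.09 (adjusted p = 0.462), and lay higher with the Smad1-/- label in 3 of 4 pairs of arrays with the same agent. Igfbp2 differed by -0.18 ± 0.09 (adjusted p = 0.497) and lay lower in 4 of 4 pairs. The intervals reached from -0.37 to 0.01 for Igfbp2 and from 0.01 to 0.41 for Igfbp4, and neither passed after adjustment over all features. Igfbp5 (-0.06 ± 0.10), Igfbp6 (-0.09 ± 0.07) and Igfbp7 (-0.03 ± 0.09) lay nearer to 0.

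**Figure D2:**
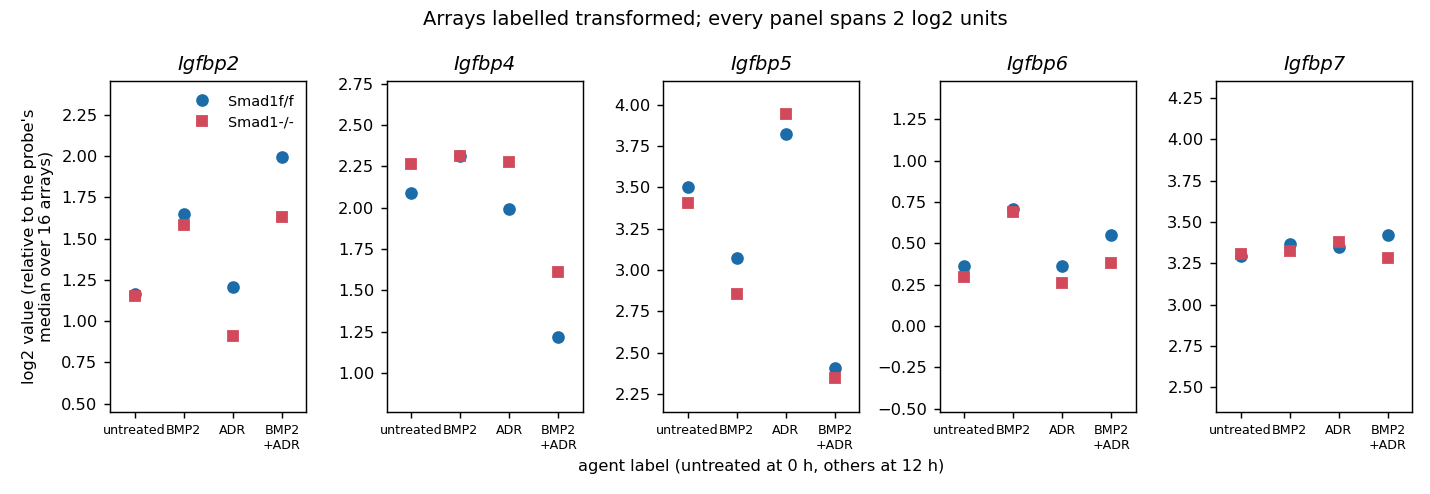
Log2 value, relative to the probe's median over 16 arrays, of each measured member on the 8 arrays labelled transformed, by agent label; circles are Smad1f/f and squares Smad1-/-, and every panel spans the same 2 log2 units. Igfbp5 and Igfbp4 are lowest on the 2 arrays labelled with both agents, Igfbp2 is higher on the 4 arrays with BMP2 in the label, and Igfbp7 lies between 3.28 and 3.42 throughout.

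Igfbp5, a tight binder of both IGFs and a substrate of PAPP-A, changed most with the agent labels. Its log2 values on the Smad1f/f and Smad1-/- arrays were 3.50 and 3.41 untreated, 3.07 and 2.85 with BMP2, 3.82 and 3.94 with ADR, and 2.41 and 2.35 with both agents. The order of the labels, ADR, untreated, BMP2 and both agents from high to low, was the same in both genotypes, and no 2 labels overlapped. Igfbp5 fell with the BMP2 label at 12 h relative to untreated at 0 h, by 0.50 on the log2 scale (-0.50 ± 0.14, adjusted p = 0.0103), a comparison in which agent and time differ together. It stood at 0.43 ± 0.14 with the ADR label relative to 0 h, which missed the threshold (adjusted p = 0.0984), though it passed with neqc (0.60, adjusted p = 0.00578), with quantile normalisation (0.59, adjusted p = 0.00671) and in a fit of all 16 arrays (adjusted p = 0.0218). Adding ADR to BMP2 gave a fall (-0.58 ± 0.14, adjusted p = 0.00588), and adding BMP2 to ADR gave a deeper fall (-1.51 ± 0.14, 2.84-fold lower, adjusted p = 2.74e-06). The departure from additive effects of the agents on the log2 scale was -1.01 ± 0.19 (adjusted p = 0.00455). Its untreated arrays are from 0 h and the other arrays from 12 h, so agent and time cannot be told apart in it. These contrasts share arrays and are not independent of each other.

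Igfbp4, likewise a substrate of PAPP-A, was lower with both agents than with any other label. Its log2 values on the Smad1f/f and Smad1-/- arrays were 2.09 and 2.27 untreated, 2.31 and 2.31 with BMP2, 1.99 and 2.28 with ADR, and 1.22 and 1.61 with both agents. Neighbouring labels other than both agents overlapped or nearly met, and the differences from 0 h were 0.13 ± 0.13 with BMP2 (adjusted p = 0.398) and -0.04 ± 0.13 with ADR (adjusted p = 0.893). Igfbp4 fell when ADR was added to BMP2 (-0.90 ± 0.13, 1.87-fold lower, adjusted p = 0.000305) and when BMP2 was added to ADR (-0.72 ± 0.13, 1.65-fold lower, adjusted p = 0.000491). The departure from additive effects, again with untreated arrays from 0 h, was -0.86 ± 0.18 (adjusted p = 0.00744). A second Igfbp4 probe, detected on the same 8 arrays, had differences of -0.9997 and -0.64 for both agents minus BMP2 in the Smad1f/f and Smad1-/- arrays, and of -0.96 and -0.64 for both agents minus ADR.

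Igfbp2, whose protein also binds both IGFs, moved the other way from its neighbour Igfbp5 with BMP2 in the label. Its log2 values on the Smad1f/f and Smad1-/- arrays were 1.16 and 1.15 untreated, 1.65 and 1.58 with BMP2, 1.21 and 0.91 with ADR, and 1.99 and 1.63 with both agents. The 4 arrays with BMP2 in the label lay above the 4 without. Igfbp2 rose with BMP2 relative to 0 h (0.46 ± 0.12, adjusted p = 0.00857) and when BMP2 was added to ADR (0.75 ± 0.12, 1.68-fold, adjusted p = 0.000252). With ADR it stood at -0.10 ± 0.12 relative to 0 h (adjusted p = 0.691) and at 0.20 ± 0.12 relative to BMP2 alone (adjusted p = 0.216). Its bead signals before scaling were 420 and 398 untreated against 471.2 and 439.9 with BMP2. The 75th percentiles used for scaling were 218.9 and 208.8 untreated against 175.2 and 171.7 with BMP2, so part of the rise against 0 h comes from the scaling.

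Igfbp6, which prefers IGF-II, had log2 values of 0.36 and 0.30 untreated, 0.71 and 0.69 with BMP2, 0.36 and 0.26 with ADR, and 0.55 and 0.38 with both agents. The 2 BMP2 arrays lay above the other 6. It rose with BMP2 relative to 0 h (0.37 ± 0.09, adjusted p = 0.00591). Its bead signals before scaling were 291.3 and 265.3 untreated against 296.3 and 287.5 with BMP2, while the 75th percentiles of these arrays, by which the authors' values are scaled, were 218.9 and 208.8 against 175.2 and 171.7. Adding ADR to BMP2 gave -0.23 ± 0.09 (adjusted p = 0.0645), which passed with neqc (-0.34, adjusted p = 0.0448) and with quantile normalisation (-0.28, adjusted p = 0.0350). Adding BMP2 to ADR gave 0.16 ± 0.09 (adjusted p = 0.172).

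Igfbp7, the weak binder of IGFs, passed in none of the 5 agent comparisons of this set. Its 8 log2 values lay between 3.28 and 3.42, with a median of 3.34. The interval of its change when BMP2 was added to ADR ran from -0.30 to 0.28, so changes within that range are not excluded.

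**Figure D3:**
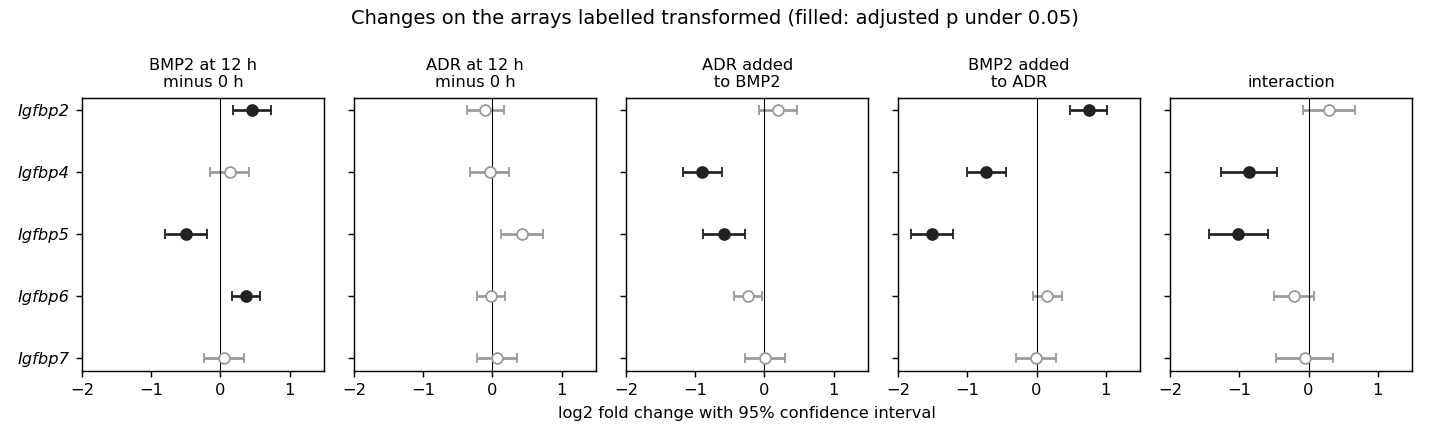
Log2 fold change of each measured member with its 95% confidence interval in 5 comparisons of the 8 arrays labelled transformed; filled points have an adjusted p under 0.05. Igfbp5 is filled in 4 panels, Igfbp4 in 3, Igfbp2 in 2, Igfbp6 in 1 and Igfbp7 in none.

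Counted over the family, 3 of 5 measured members passed for BMP2 against 0 h, where 51.8% of 10275 features passed. None passed for ADR against 0 h, where 4.93% of features did. Adding ADR to BMP2 changed 2 of 5, against 41.1% of features, and adding BMP2 to ADR changed 3 of 5, against 57.9%. Of the departures from additivity 2 of 5 passed, against 22.6%. These shares lie near the background of each comparison or rest on few genes, so they single out no family response. Igfbp5 nevertheless stood at the 0.633 percentile of all changes when BMP2 was added to ADR, and at the 0.331 percentile of the departures from additivity, counted from the lowest. Igfbp4 stood at the 1.14 percentile when ADR was added to BMP2. Other calls lay nearer the bulk of all changes. With BMP2 against 0 h, Igfbp2, Igfbp5 and Igfbp6 stood at the 85.8, 13.8 and 81.9 percentiles. When BMP2 was added to ADR, Igfbp2 and Igfbp4 stood at the 89 and 8.4 percentiles.

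Leaving out single arrays changed some of these calls. Without the Smad1-/- BMP2 array, whose signals had to be recovered, no member passed for BMP2 against 0 h: Igfbp2 stood at 0.38 (adjusted p = 0.0999), Igfbp5 at -0.39 (adjusted p = 0.162) and Igfbp6 at 0.32 (adjusted p = 0.0720). Without the untreated Smad1f/f array Igfbp2 stood at 0.34 (adjusted p = 0.123) and Igfbp5 at -0.47 (adjusted p = 0.0730), and without the untreated Smad1-/- array Igfbp5 stood at -0.52 (adjusted p = 0.0509). Without the Smad1f/f BMP2 array Igfbp5 missed the threshold for ADR added to BMP2 (-0.48, adjusted p = 0.106), and so did Igfbp4 for the departure from additivity (-0.72, adjusted p = 0.0538). Without the recovered array, the falls when ADR was added to BMP2 were -1.04 for Igfbp4 (adjusted p = 0.00155) and -0.69 for Igfbp5 (adjusted p = 0.0313), and the departures from additivity were -1.0002 (adjusted p = 0.0145) and -1.11 (adjusted p = 0.0191). The 3 calls for BMP2 added to ADR held without any 1 array of the fit. They ranged from 0.63 to 0.87 for Igfbp2, from -0.84 to -0.60 for Igfbp4 and from -1.63 to -1.38 for Igfbp5.

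Marker lists moved with the same labels, and their part in the members' changes was not tested. When BMP2 was added to ADR, 6 of 10 fibroblast markers fell and 1 rose, near the 57.9% of all features that passed, with a median of -0.46 against -0.06 over all features. Pdgfrb and Pdgfra, receptors of platelet-derived growth factor, fell by 1.94 and 1.42 on the log2 scale. The summed fibroblast signal was 53910 and 57680 on the ADR arrays and 50090 and 50220 with both agents. Epithelial markers summed to 649.1 and 694.3 with ADR and to 1454 and 1742 with both agents, with Epcam, Cdh1, Cldn7 and Krt8 undetected on all 8 arrays. Of the epithelial genes Krt7 rose by 2.55 and Krt19 by 2.09. Endothelial markers summed to 610.8 and 650.6 against 1305 and 1424, carried mostly by Mmrn2 (116.9 and 104.5 against 761.9 and 875.5), while Emcn stood at -0.15 ± 0.09, with Pecam1, Cdh5, Kdr, Tek and Tie1 undetected.

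**Figure D4:**
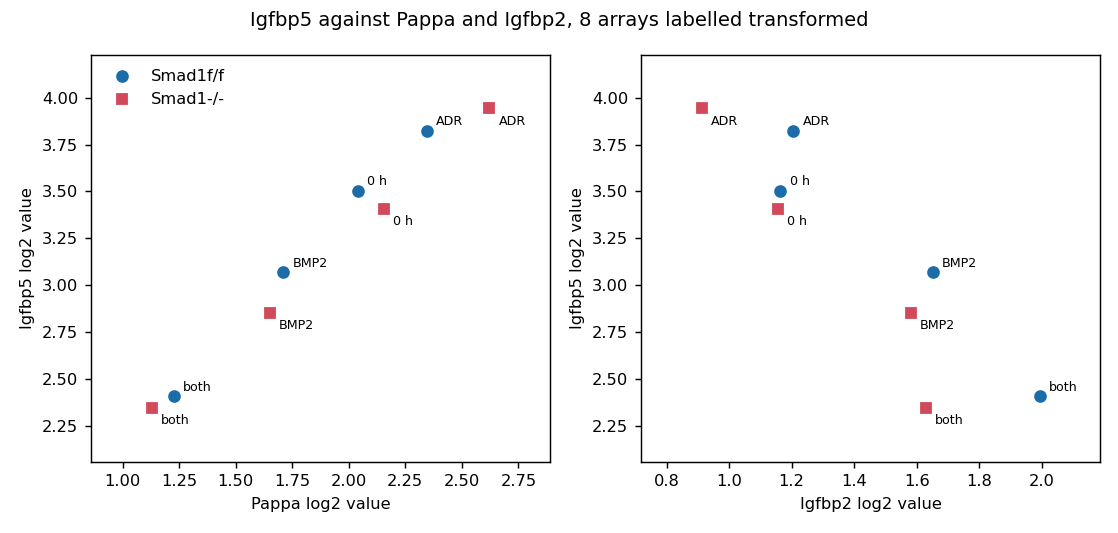
Log2 value of Igfbp5 (y axis) against those of Pappa (left) and Igfbp2 (right) on the 8 arrays labelled transformed; circles are Smad1f/f, squares Smad1-/-, and each point carries its agent label. Igfbp5 and Pappa are both highest with ADR and both lowest with both agents. The arrays with BMP2 in the label have higher Igfbp2 and lower Igfbp5 than those without.

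Among the members, Igfbp2 and Igfbp5 had a correlation of -0.90 across the 8 transformed arrays, Igfbp4 and Igfbp5 of 0.65, and Igfbp2 and Igfbp6 of 0.74. These are descriptions over 8 arrays that share cells, agents and scaling. By a fixed measure, the Pearson correlation over 16 arrays after the mean of each set was taken off, the genes most like Igfbp5 among 7920 candidates were Lss, an enzyme of sterol synthesis (0.98), Pappa (0.98) and Rrbp1, a ribosome-binding protein of the endoplasmic reticulum (0.97). Those most like Igfbp4 were Mfap5, a microfibril protein (0.96), Eno3 (0.91) and Ranbp1 (0.91). Those most like Igfbp2 were Asl (0.97), Sema3f (0.96) and H2-T9 (0.95), and those most like Igfbp6 were Dtna (0.93), Hoxb7 (0.93) and Selenof (0.90). Igfbp7 had no gene above 0.70, the value of Dnlz. Igfbp2, Igfbp4 and Igfbp5 were at background on the primary arrays, so their likeness there is that of undetected probes.

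In the arrays labelled primary only Igfbp6 and Igfbp7 could be tested. Igfbp6 had log2 values of -0.73 untreated, -0.30 with BMP2, -0.98 with ADR and -0.50 with both agents at 8 h, and of -1.05, -0.26, -1.31 and -0.30 in the same order at 16 h. The 4 arrays with BMP2 in the label lay above the 4 without. It rose with the BMP2 label (0.68 ± 0.09, 1.60-fold, adjusted p = 7.83e-05, higher in 4 of 4 pairs), where 24.5% of 9433 features passed. This held without any 1 array, with values from 0.58 to 0.78 (0.60 without the ADR array at 16 h, on which Igfbp6 was undetected), and neqc gave 1.16 ± 0.14. As Cdkn1a and Mdm2 rose with the same label, the direction is that of the label and not of a checked BMP2 response.

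Igfbp6 stood at -0.18 ± 0.09 with the ADR label (adjusted p = 0.495), where 0.742% of features passed, and at -0.10 ± 0.09 at 16 h minus 8 h (adjusted p = 0.365), where 46.0% passed. Igfbp7 had log2 values of -3.33, -3.28, -3.47 and -3.48 at 8 h and of -3.32, -3.37, -3.37 and -3.35 at 16 h, for untreated, BMP2, ADR and both agents. The 4 arrays with BMP2 in the label overlapped the 4 without, as did the 8 h and 16 h arrays, and its changes were 0.002 ± 0.08 with the BMP2 label (adjusted p = 0.990), -0.09 ± 0.08 with the ADR label (adjusted p = 0.718) and 0.03 ± 0.08 between the times (adjusted p = 0.749). No feature passed for the departure from additivity in this set (0% of 9433 in limma), with 551 at an unadjusted p under 0.05, and Igfbp6 stood at 0.14 ± 0.18 and Igfbp7 at 0.004 ± 0.15.

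The agent differences were then compared between the sets themselves, at 12 h in the transformed arrays against 8 h and 16 h in the primary arrays. Igfbp2, Igfbp4 and Igfbp5 were undetected on all 8 primary arrays, so no change could be measured there and no difference between the sets is drawn for them. Of the 2 members measured in both sets, Igfbp6 passed and Igfbp7 (-0.01 ± 0.12, adjusted p = 0.941) did not for BMP2 added to ADR, against 44.9% of 10982 features. The Igfbp6 values for both agents minus ADR were 0.19 and 0.12 on the Smad1f/f and Smad1-/- arrays, 0.48 at 8 h and 1.01 at 16 h, the last against an array on which Igfbp6 was undetected. The difference, transformed minus primary, was -0.59 ± 0.16 (adjusted p = 0.0061), and neqc gave -1.11. It missed the threshold without that undetected array, the primary ADR array at 16 h (-0.44, adjusted p = 0.0608), or without the primary array with both agents at 16 h (-0.39, adjusted p = 0.0701). For ADR added to BMP2 neither passed, against 22.5% of features: Igfbp6 stood at -0.12 ± 0.16 (adjusted p = 0.651) and Igfbp7 at 0.10 ± 0.12 (adjusted p = 0.628).

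Among 4 tested genes of the ligands and receptors, Igf1r passed in agent comparisons of the transformed set and the others did not. Igf2, which encodes IGF-II, had signals of 24540 to 30670 on the transformed arrays and of 80.1 to 102.8 on the primary ones, near background, where it was detected on 4 of 8. It passed in none of the agent comparisons of either set. Igf1r, the receptor of both ligands, fell with BMP2 against 0 h (-0.47 ± 0.12, adjusted p = 0.00731), with ADR added to BMP2 (-0.55 ± 0.12, adjusted p = 0.00443) and with BMP2 added to ADR (-0.71 ± 0.12, adjusted p = 0.000381), the last being 1 of the 4 tested genes of this list to pass, against 57.9% of all features. The first call was lost without the untreated Smad1-/- array (-0.34, adjusted p = 0.0999) or the Smad1-/- BMP2 array (-0.44, adjusted p = 0.0543), and the second without the Smad1-/- array with both agents (-0.35, adjusted p = 0.0805). Without the Smad1-/- BMP2 array the second value was -0.58 (adjusted p = 0.0241). Igf2r, a receptor that clears IGF-II, rose with the BMP2 label of the primary set (0.29 ± 0.07, adjusted p = 0.00575).

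The proteases that act on binding proteins, and their inhibitors, changed in both directions. When BMP2 was added to ADR, 4 of the 10 tested rose and 2 fell, near the 57.9% of all features that passed, with a median of 0.22 against -0.06. Pappa had log2 values of 2.04 and 2.15 untreated, 1.71 and 1.65 with BMP2, 2.35 and 2.62 with ADR, and 1.23 and 1.13 with both agents on the Smad1f/f and Smad1-/- arrays. No 2 labels overlapped, and the order of the labels was that of Igfbp5. Pappa fell by 1.31 on the log2 scale when BMP2 was added to ADR (-1.31 ± 0.13, adjusted p = 4.77e-06), by 0.42 with BMP2 against 0 h (-0.42 ± 0.13, adjusted p = 0.0173) and by 0.50 with ADR added to BMP2 (-0.50 ± 0.13, adjusted p = 0.00898). The call against 0 h was lost without either untreated array (-0.45 and -0.38, adjusted p = 0.0691 and 0.109) or the Smad1-/- BMP2 array (-0.34, adjusted p = 0.168). Without the Smad1-/- BMP2 array the value for ADR added to BMP2 was -0.58 (adjusted p = 0.0358). That call was lost without the Smad1f/f BMP2 array (-0.43, adjusted p = 0.105) or the Smad1-/- array with both agents (-0.40, adjusted p = 0.103).

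Adam12, a metalloprotease that can cut IGFBP3 and IGFBP5, fell by 1.37 when BMP2 was added to ADR (-1.37 ± 0.11, adjusted p = 9.56e-07). The proteases Plau (urokinase) and Ctsd (cathepsin D) rose in that comparison, by 1.35 ± 0.09 (adjusted p = 3.71e-07) and 1.34 ± 0.10 (adjusted p = 5.16e-07). In the primary set the BMP2 label went with a rise of Plau (1.03 ± 0.07) and Plat, the tissue plasminogen activator (0.88 ± 0.08). It also went with a fall of Htra1, a serine protease that cuts IGFBP5 (-0.94 ± 0.08). These are 3 of the 6 genes of this list that passed among 8 tested, 4 higher and 2 lower, against 24.5% of all features.

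**Figure D5:**
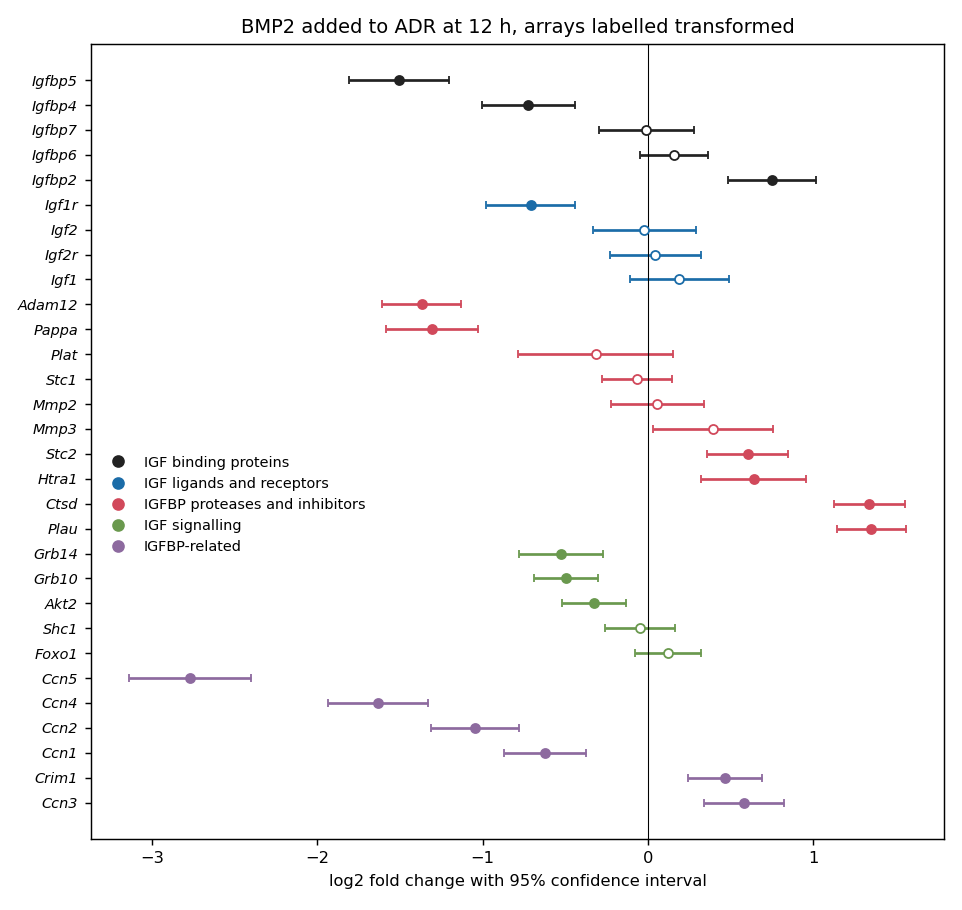
Log2 fold change with its 95% confidence interval when BMP2 was added to ADR on the arrays labelled transformed, for each tested member of the family and of 4 lists of related genes; filled points have an adjusted p under 0.05. Igfbp5 (-1.51), Adam12 (-1.37) and Pappa (-1.31) lie to the left, and Plau (1.35) and Ctsd (1.34) to the right.

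Of 5 tested genes of IGF signalling, 3 fell and none rose when BMP2 was added to ADR, near the 57.9% of all features that passed, with a median of -0.32. Grb14, an adaptor that binds the insulin receptor, fell by 0.52 (-0.52 ± 0.12, adjusted p = 0.00225). Among relatives with an IGFBP domain, 4 of 6 tested fell and 2 rose, with a median of -0.84, against the same 57.9%. Ccn5 and Ccn4, secreted matricellular proteins, fell by 2.77 (-2.77 ± 0.17, adjusted p = 1.23e-07) and 1.63 (-1.63 ± 0.14, adjusted p = 1.54e-06). With BMP2 against 0 h, Ccn2 and Ccn1 fell by 2.51 and 2.33 on the log2 scale (-2.52 and -2.11 without the Smad1-/- BMP2 array), and 4 of 6 fell and 1 rose, where 51.8% of all features passed. In the primary set Ccn1 rose with the BMP2 label (0.83 ± 0.07, adjusted p = 1.44e-06). Igfbp1, the member of the family outside those followed here that a probe names, was detected on 0 of 16 arrays.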

How the data were processed

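Expression of mouse RNA was read on 16 single-colour Illumina BeadChip arrays. Per the submitters' processing notes, the authors used GenomeStudio 2011.1. The deposited bead signals are linear intensity values, non-normalized per the file headers. The deposited detection columns are headed as p-values but hold 1 minus the detection p-value, as bright probes are near 1. The deposited log2 table equals log2 signal minus the array's 75th percentile and the probe's median over 16 arrays (largest residual 1.4e-06), so its scale, centring and direction are settled. The signals of the Smad1-/- BMP2 array repeat those of another array at 100% of probes. They were recovered from the log2 table, where 99.9% of values fell within 0.01 of a 0.1 step, and ranked the probes as that array's own detection values do (Spearman 0.992). The same recovery returned 100% of signals on the other 15 arrays.

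Of 24613 probes, 20984 name 1 gene, 1 several and 3628 none, by a platform annotation that can be old. A probe entered a fit if 2 or more of its arrays detected it at p under 0.05, and the brightest detected probe stood for a gene. The log2 values were fitted with limma 3.58.1 (R 4.3.3, Python 3.11.15), with eBayes and a trend, and Benjamini-Hochberg adjustment over all features. Probes without a gene name were tested as themselves, so the 10275 features of the transformed fit are 8837 named genes and 1438 such probes. The fits were genotype and agent over the 8 transformed arrays, time and agent over the 8 primary arrays, and line with agents over all 16. Labels do not say that arrays came from separate cultures, so p-values measure only the spread between these arrays, which may be technical. Precision is limited by how few arrays there are. Scripts were tested on simulated data with 200 changed genes.

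All 6 members were to be named, with at most 4 genes per list and comparison, those with the highest absolute change that passed, and 3 most alike genes per member. The members and lists were chosen with earlier results of these data known. Alternatives were neqc (offset 16), quantile normalisation without background correction, detection on every array, no detection filter, the mean of probes, 1 fit of all 16 arrays and leaving out each array. No slide is given in the sources used here, so slide was not fitted.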

Additional observations from a re-analysis of the deposited data

Results flagged for a closer look

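Igfbp6 is listed because its change when BMP2 was added to ADR differed between the arrays labelled transformed and primary, at -0.59 (limma, adjusted p = 0.0061), in a test of the difference itself. Igfbp6 was undetected on the primary ADR array at 16 h, and without that array the difference was -0.44 (adjusted p = 0.0608).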

How the results depend on the processing

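No called member changed direction under these alternatives. The counts in this paragraph include the differences between the sets for Igfbp2, Igfbp4 and Igfbp5, in which the primary values are undetected. For those, passing under an alternative or holding without 1 array is no sign of stability. All 22 member results that passed also passed with neqc, with quantile normalisation, with the mean of probes and without a detection filter, and the 11 that could be fitted in 1 fit of all 16 arrays or with detection on every array passed there. Igfbp5 with ADR against 0 h also passed with neqc, quantile normalisation and the fit of all 16 arrays, which makes the count of members 1 in place of 0, and Igfbp6 with ADR added to BMP2 passed with neqc and quantile normalisation. Leaving out each array in turn kept 252 member calls and lost 12.

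Counts over all genes moved more. For genotype the count of 0 became 14 with neqc, 11 with detection on every array, 28 without a filter and 75 in the fit of all 16 arrays, and 0 to 57 without 1 array. For ADR against 0 h, 507 became 2 to 422 without 1 array. For ADR added to BMP2, 4228 became 6843 without a filter and 2629 to 4329 without 1 array. For the departure from additivity, 2318 became 1330 to 1895 without 1 array. For 16 h minus 8 h, 4338 became 12184 without a filter, with 3 members. These are Igfbp2, Igfbp4 and Igfbp5, which enter that fit only without the filter. They were undetected on every primary array, so no change with time is drawn for them. For the ADR label of the primary set, 70 became 31 to 49, and for the primary departure from additivity 0 became 0 to 1, without 1 array. For the level between sets, 6576 became 4371 with detection on every array, with 1 member.

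Without 1 array, members that passed numbered 0 to 3 for BMP2 against 0 h, and 1 to 2 for ADR added to BMP2, for the departure from additivity and for the difference between sets with ADR added to BMP2. With detection on every array, 0 members passed for the BMP2 label of the primary set and for both differences between sets, because Igfbp2, Igfbp4 and Igfbp5 were undetected on the primary arrays and Igfbp6 on 1 of them. The differences between sets for Igfbp2, Igfbp4 and Igfbp5 enter these counts but rest on undetected primary values. Other causes were not tested. No paired analysis was possible because all arrays carry the same replicate number, so that number pairs nothing, while genotype or time was already a term of each fit. Slide was not run as a block. Signals near background limit the primary values of every member.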
